A study of Mus musculus with 4 samples.

Results

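The pacemaker genes described here are 6 genes in 2 families of function, and they were taken by symbol from the table of 24637 genes measured in this study. *Hcn2*, *Hcn3* and *Hcn4* encode hyperpolarization-activated cyclic nucleotide-gated (HCN) channels, and *Shox2*, *Tbx2* and *Tbx3* encode transcription factors of the sinoatrial node and the rest of the cardiac conduction system. All 6 symbols were found once each, and all 6 genes passed the filter on low values, which asked for 10 normalized counts on average. Messenger RNA was sequenced from 4 libraries, 2 labelled WT (genotype Taf4+/+) and 2 labelled *Taf4a*-/- (genotype Taf4-/-), each from an independent mouse embryonic stem cell (ESC) line derived from a blastocyst of a cross of heterozygous parents. The null allele lacks exons 11 and 12 of *Taf4a*, which encodes a subunit of the general transcription factor TFIID, and in the mutant lines these exons are missing from all cells rather than from one cell type. The lines of each genotype had been kept on feeder fibroblasts with leukaemia inhibitory factor, were grown as embryoid bodies for 5 days in medium rich in serum, and were then plated on gelatin for 9 days, with no other treatment. No sorting step is described, so a library holds the RNA of all the cells of a dish.

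An HCN channel opens when the membrane becomes more negative and lets in the current that brings a pacemaker cell back to its firing threshold, and cyclic AMP binding to the channel speeds it up. *Hcn4* is the main isoform of the sinoatrial node, *Hcn2* is also found in pacemaker cells and neurons, and *Hcn3* is the least studied of them in the heart. *Shox2* keeps the chamber programme out of the node by restraining *Nkx2-5*, while *Tbx2* and *Tbx3* are T-box repressors that hold back chamber genes in the atrioventricular canal and the node. None of the 3 factors is particular to the heart, since limb and craniofacial mesenchyme also use them, and *Tbx3* is expressed in naive ESCs.

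The question put to these data was whether RNA of the pacemaker genes differed between the genotypes, in cultures where spontaneous contraction was one of the traits the study compared. *Shox2* and *Tbx3* rose in the libraries labelled *Taf4a*-/-, by 2.31 and 1.78 times on the ratio of mean normalized counts. Means of *Hcn2* and *Hcn4* were lower and the mean of *Hcn3* was higher there, but none of these 3 channel genes passed the test. *Tbx2* had nearly the same counts in both genotypes. In limma's test with Benjamini-Hochberg adjustment over the 16926 genes with enough counts, 2 of the 6 genes were called higher at an adjusted p-value under 0.05 and 0 were called lower, where 11.3% of all tested genes were called higher and 17.3% lower, 28.6% in all. At an unadjusted p-value under 0.05 there were 4 of the 6, the others being *Hcn2* and *Hcn4*, against 42.5% of all tested genes. Neither *Shox2* nor *Tbx3* was called when the variances were moderated without a trend (adjusted p = 0.0627 and 0.0824 from limma), and leaving out 1 library ended the call of *Shox2* in 3 of 4 fits and that of *Tbx3* in 2 of 4. The median log2 fold change of the 6 genes was 0.40, against -0.01 for all tested genes. The groups of libraries did not overlap for 5 of the 6 genes, as was true for 71.1% of all tested genes.

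**Figure D1:**
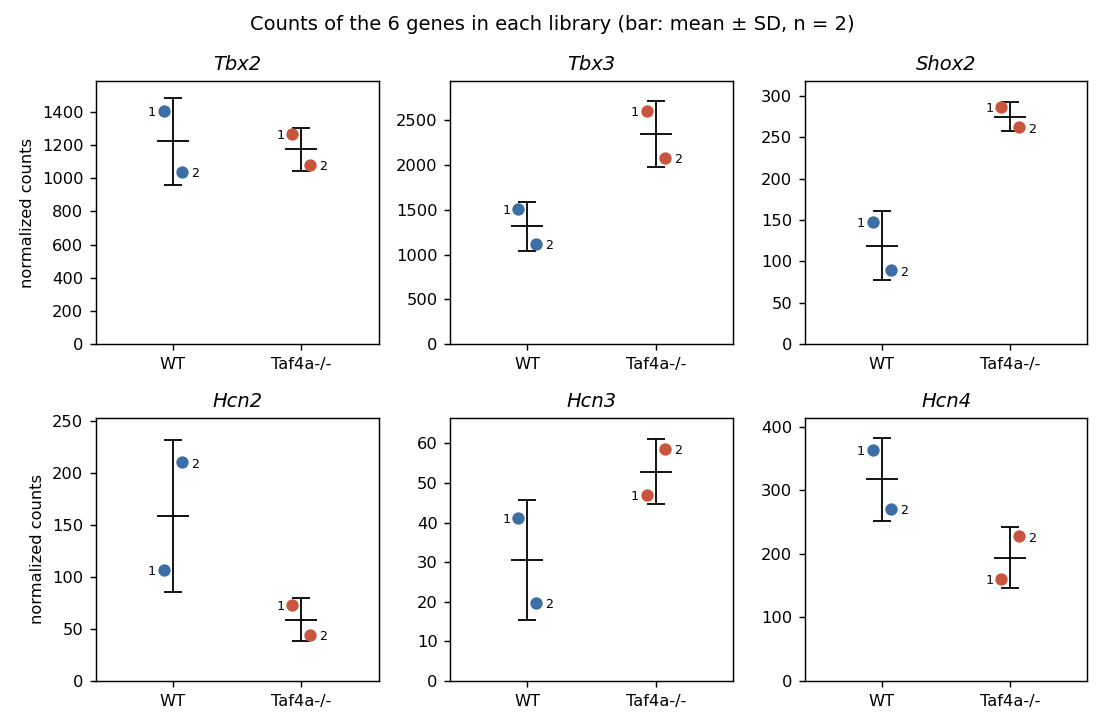
Normalized counts of the 6 genes (vertical axis of each panel, from 0) in the WT libraries (blue) and the libraries labelled *Taf4a*-/- (red), with the replicate number beside each point and the mean ± SD of 2 libraries as a bar. The red points lie above the blue ones for *Tbx3*, *Shox2* and *Hcn3* and below them for *Hcn2* and *Hcn4*, and they fall within the blue range for *Tbx2*.

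A few facts of the whole series bear on these values. Between 21732746 and 27733034 reads were counted on genes per library, and all values were whole multiples of 1 read, so the reads behind each value are known. *Taf4a* RNA itself was higher in those labelled *Taf4a*-/- (log2 fold change 1.18, limma adjusted p = 0.00569), with 1722 and 1799 normalized counts against 889 and 678 in WT, and since a gene-level count cannot separate the deleted exons, it does not check the labels. Across all tested genes 1906 were called higher and 2928 lower, and with quantile normalization the split was 2676 against 2448. As the cultures are labelled cardiac cells, 8 cardiomyocyte markers were examined. All 8 were detected in every library and all 8 fell, with a summed level of 21973 to 25249 normalized counts in WT and 1730 to 2072 in those labelled *Taf4a*-/-. Of 8 markers of undifferentiated cells, 6 rose and 2 were not called, and their summed level was 5404 and 2780.5 in the WT lines, replicate 1 first, and 15411 and 17734 in the other genotype. Fewer cells of a type and less RNA per cell cannot be told apart in such bulk samples.

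*Tbx3* (ENSMUSG00000018604) is found on chromosome 5 in build NCBIM37 (mm9), from 120120678 to 120134733 on the plus strand. It had 1508 and 1119 normalized counts in replicates 1 and 2 of WT, and 2604 and 2081 in replicates 1 and 2 of those labelled *Taf4a*-/-. Every *Taf4a*-/- library was therefore above every WT library, and the gap between the genotypes was wider than the gap between the lines of either one. The log2 fold change was 0.84 (SE, the standard error, 0.19, 95% interval 0.38 to 1.3002, limma adjusted p = 0.0235). The rise was between 0.63 and 1.06 when 1 library was left out, and its adjusted p-value was 0.0808 without WT replicate 2 and 0.1004 without *Taf4a*-/- replicate 1. It was 0.0824 when each gene's variance was moderated without a trend on its mean. A non-coding gene on the other strand, *Gm2301*, shares 115 nt with *Tbx3* exons, 2.14% of their length, and it had between 5.20 and 16.6 normalized counts.

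*Tbx2* (ENSMUSG00000000093), on chromosome 11 from 85646053 to 85655450 on the plus strand, is the closest relative of *Tbx3*. It was measured at 1407 and 1038 normalized counts in WT and 1267 and 1082 in those labelled *Taf4a*-/-. Both values of the second group fell between those of the WT lines. The log2 fold change was -0.05 (SE 0.18, limma adjusted p = 0.869), and it was 0.014 with equal library totals and 0.018 with quantile normalization. Its 95% interval of -0.49 to 0.40 leaves room for a modest change either way. Within a library, *Tbx3* had 0.724 and 0.729 times the level of *Tbx2* per kb of exons in the WT libraries. In the libraries labelled *Taf4a*-/- the same ratio was 1.39 and 1.301. The ratio was thus almost equal in the WT lines, and *Tbx3* went from the lower to the higher of the pair. A ratio within a library does not depend on scaling, but 2 libraries against 2 cannot give less than p = 0.333 in a two-sided exact permutation test, which is the value obtained.

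*Shox2* (ENSMUSG00000027833), on chromosome 3 from 66775649 to 66785693 on the minus strand, encodes a homeodomain protein. Its counts were much lower than those of the T-box genes, with 148 and 89.4 normalized counts in replicates 1 and 2 of WT and 287 and 262 in those labelled *Taf4a*-/-. The 2 libraries of the second group were close together and both were above WT replicate 1, the higher of the WT lines. The log2 fold change was 1.25 (SE 0.29, 95% interval 0.54 to 1.95, limma adjusted p = 0.0263). WT replicate 2 holds the lowest value, and without it the log2 fold change was 0.88 and the adjusted p-value was 0.0625. The adjusted p-value was 0.0871 without *Taf4a*-/- replicate 1, 0.0526 without *Taf4a*-/- replicate 2 and 0.0627 with no variance trend. The 5′ end of *Shox2* overlaps *Rsrc1*, which is on the other strand, over 153 nt of exons (4.54% of the exon length of *Shox2*). *Rsrc1* had 1127 and 1079 normalized counts in WT and 849 and 857 in the other genotype. The libraries were not stranded, and the part of reads from the shared stretch in the values of *Shox2* was not tested.

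*Hcn4* (ENSMUSG00000032338), on chromosome 9 from 58671319 to 58708762 on the plus strand, had the highest level per kb of the 3 channel genes in every library. It was measured at 364 and 271 normalized counts in WT and 161 and 228 in those labelled *Taf4a*-/-. All values of the second group lay below WT, yet *Taf4a*-/- replicate 2 was closer to WT replicate 2 than to its own partner. Means were 318 ± 65.5 and 194 ± 47.6 (SD, 2 libraries each). The log2 fold change of -0.71 (SE 0.26, 95% interval -1.35 to -0.08) missed the threshold (limma adjusted p = 0.0883).

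*Hcn2* (ENSMUSG00000020331), on chromosome 10 from 79179379 to 79198853 on the plus strand, varied more between the lines of one genotype. It had 107 and 209.9 normalized counts in replicates 1 and 2 of WT and 73.4 and 44.2 in those labelled *Taf4a*-/-. It was the member for which WT replicate 2 exceeded replicate 1, by 0.97 on the log2 scale. The log2 fold change of -1.38 (SE 0.43, 95% interval -2.41 to -0.35) was the largest in size among the 6 genes and also missed the threshold (limma adjusted p = 0.0556). It passed without WT replicate 1, at -1.86 (adjusted p = 0.0430), and without *Taf4a*-/- replicate 1, at -1.74 (adjusted p = 0.0376), and was -0.90 without WT replicate 2.

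*Hcn3* (ENSMUSG00000028051), on chromosome 3 from 88949996 to 88964118 on the minus strand, had the fewest reads, from 19 to 53 in a library. It was measured at 41.2 and 19.7 normalized counts in WT and 47.0 and 58.6 in those labelled *Taf4a*-/-. The WT lines differed by 1.02 on the log2 scale, more than the log2 fold change between the genotypes of 0.85 (SE 0.45, limma adjusted p = 0.197). The 95% interval ran from -0.23 to 1.94, and without WT replicate 2 the value was 0.34. The 3′ end of *Hcn3* shares 711 nt, 17.1% of its exon length, with *Pklr* on the other strand. *Pklr*, the pyruvate kinase of liver and red cells, had 59.6 and 28.1 normalized counts in WT and 4.89 and 8.85 in the other genotype, and without strand the reads of the shared stretch have no known owner.

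**Figure D2:**
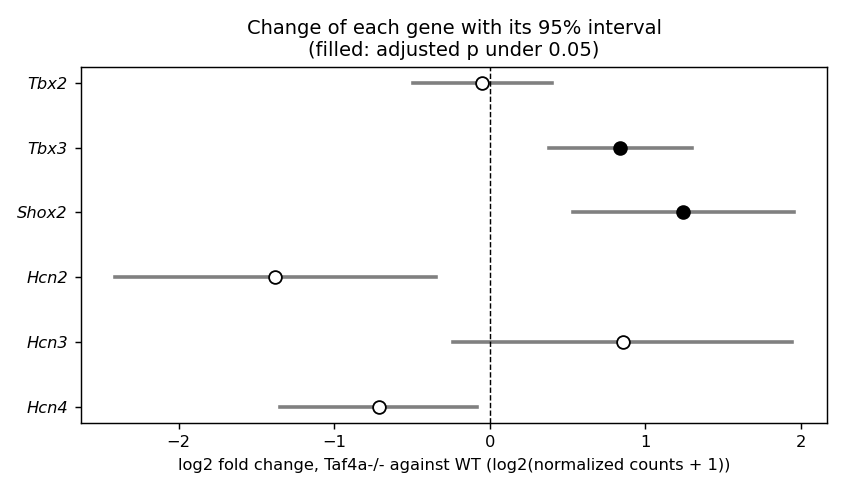
Log2 fold change of each of the 6 genes in the libraries labelled *Taf4a*-/- against WT (horizontal axis, log2(normalized counts + 1)), with the 95% interval as a line and a filled point for an adjusted p-value under 0.05. The filled points are *Tbx3* at 0.84 and *Shox2* at 1.25, and the intervals of *Tbx2* and *Hcn3* include 0.

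Per kb of exons, *Hcn2*, *Hcn3* and *Hcn4* together reached 139 and 142 normalized counts in WT and 76.6 and 87.9 in those labelled *Taf4a*-/-. The WT lines were close in this sum although single channels differed between them, with *Hcn2* higher and *Hcn4* lower in replicate 2. *Hcn4* made up 68.8% and 50.3% of the sum in WT and 55.2% and 68.2% in the other genotype, so its share overlapped. The share of *Hcn2* also overlapped, at 24.1% and 46.3% against 30.01% and 15.7%. The share of *Hcn3* did not, with 7.13% and 3.35% in WT and 14.8% and 16.05% in those labelled *Taf4a*-/-. For the sum and for the share of *Hcn3*, p = 0.333 in the two-sided exact permutation test, the smallest that 2 against 2 libraries can give.

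**Figure D3:**
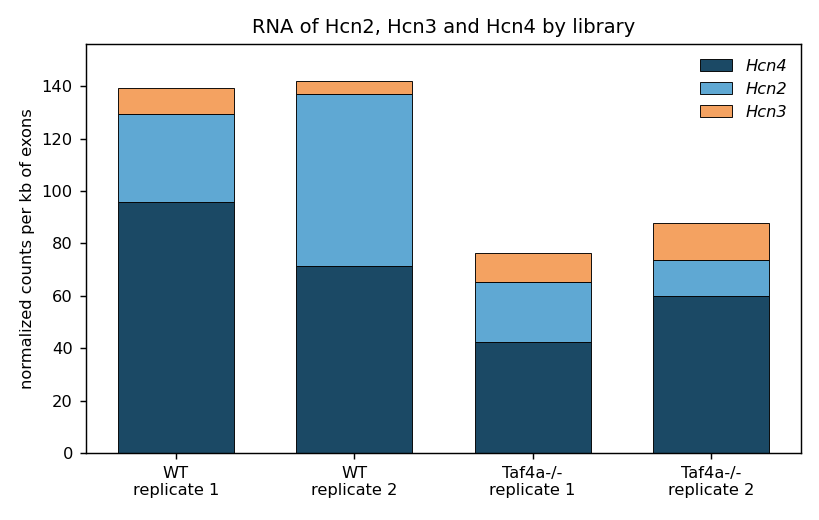
Stacked normalized counts per kb of exons (vertical axis) of *Hcn2*, *Hcn3* and *Hcn4* in each library. The WT bars reach 139 and 142 and those of the libraries labelled *Taf4a*-/- reach 76.6 and 87.9, with *Hcn4* as the largest part of every bar.

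Levels were compared between genes per kb of exons. In WT the order was *Tbx2* (337 ± 72.0 normalized counts per kb), *Tbx3* (245 ± 51.3), *Hcn4* (83.6 ± 17.2), *Hcn2* (49.6 ± 22.8), *Shox2* (35.2 ± 12.3) and *Hcn3* (7.34 ± 3.65; SD, n = 2 each). The neighbours *Hcn2* and *Shox2* overlapped across the WT libraries, and the means of *Tbx2* and *Tbx3* differed by less than their SDs together. In the libraries labelled *Taf4a*-/- the order was *Tbx3* (437 ± 68.9), *Tbx2* (324 ± 36.1), *Shox2* (81.4 ± 5.18), *Hcn4* (51.1 ± 12.5), *Hcn2* (18.4 ± 6.46) and *Hcn3* (12.7 ± 1.98), where *Hcn2* and *Hcn3* overlapped. *Shox2* thus stood below *Hcn4* in every WT library and above it in every library labelled *Taf4a*-/-. *Tbx2* had a higher level per kb in WT than 68.5% of tested genes and *Hcn3* than 7.07%.

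Promoter sequence is shown for *Shox2*, which rose, and for *Hcn2* and *Hcn4*, whose means were lower together, because TFIID, of which Taf4 is a subunit, binds at core promoters. The 3 genes were those matched in the RefSeq promoter table, and *Hcn3*, *Tbx2* and *Tbx3* were not matched. Each window holds 250 bases before and 50 after the annotated start, 5′ to 3′ on the strand of the gene, in GRCm38.p6, whose coordinates differ from the NCBIM37 positions above. Capitals mark matches on either strand to the TATA box letters TATAAA, the GC box GGGCGG, the CCAAT box, or the core of a T-box half-site, GGTGTGA. The windows are chr3:66981722-66982021 (minus strand) for *Shox2*, chr10:79716384-79716683 (plus strand) for *Hcn2* and chr9:58822699-58822998 (plus strand) for *Hcn4*.
Shox2: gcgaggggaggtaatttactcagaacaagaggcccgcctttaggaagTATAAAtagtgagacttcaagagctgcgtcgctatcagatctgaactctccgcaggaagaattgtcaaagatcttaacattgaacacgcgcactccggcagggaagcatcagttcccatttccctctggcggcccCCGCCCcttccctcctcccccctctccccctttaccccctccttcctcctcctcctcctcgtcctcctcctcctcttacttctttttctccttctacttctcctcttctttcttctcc
Hcn2: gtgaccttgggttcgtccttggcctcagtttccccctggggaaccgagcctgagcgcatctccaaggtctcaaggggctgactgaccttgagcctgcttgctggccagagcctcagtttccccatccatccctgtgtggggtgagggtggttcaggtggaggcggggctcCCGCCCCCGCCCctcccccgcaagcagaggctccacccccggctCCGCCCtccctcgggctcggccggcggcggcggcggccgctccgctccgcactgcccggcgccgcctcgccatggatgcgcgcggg
Hcn4: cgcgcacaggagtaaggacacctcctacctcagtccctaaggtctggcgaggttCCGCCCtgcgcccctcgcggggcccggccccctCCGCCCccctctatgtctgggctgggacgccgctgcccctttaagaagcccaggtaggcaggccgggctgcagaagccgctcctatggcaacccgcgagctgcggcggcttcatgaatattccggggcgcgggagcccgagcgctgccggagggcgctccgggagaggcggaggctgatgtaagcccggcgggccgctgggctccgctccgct

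The *Shox2* window holds TATAAA once, from base -203 to -198 of the start, and GGGCGG once on the other strand. The letters TATAAA occur in 13.6% of the 32851 windows of this length in the table. This is a match of letters only, and whether TATAAA this far before the start acts as a TATA box was not tested. GGGCGG, the GC box, is on the other strand in 3 places of the *Hcn2* window, from -80 to -75, from -74 to -69 and from -36 to -31, and in 2 places of the *Hcn4* window, and 35.7% of all windows hold it. Neither CCAAT nor GGTGTGA is in any of the 3 windows, against 37.4% and 3.98% of all windows. The windows of *Hcn2* and *Hcn4* are rich in G and C, at 72.3% and 71.7%, more than 93.5% and 92.6% of windows, while *Shox2* at 53.3% is near the median of 52.7%.

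The log2 fold changes of the 8 cardiomyocyte markers ran from -4.58 to -2.47, and each pacemaker gene was also set against the mean log2 value of these markers in its own library. On this scale *Hcn4* was at -2.35 and -3.03 in WT and at -0.12 and 0.25 in those labelled *Taf4a*-/-. *Hcn2* was at -4.11 and -3.40 in WT and at -1.23 and -2.09 in the other genotype. *Tbx3* went from -0.30 and -0.99 to 3.90 and 3.44, and *Shox2* from -3.64 and -4.62 to 0.72 and 0.45. Relative to these markers every one of the 6 genes was higher in both libraries labelled *Taf4a*-/- than in both WT libraries, with mean differences from 2.09 for *Hcn2* to 4.72 for *Shox2* (p = 0.333 for each, the smallest possible in the two-sided exact permutation test). This scale adds the markers' own fall to each gene's change. Any gene that fell by less than their mean therefore comes out higher. The median log2 fold change of all tested genes was -0.01, so this holds for most genes and is not particular to these 6. Markers of other cells also differed, beside 11.3% called higher and 17.3% lower among all tested genes. The summed level of 9 fibroblast and mesenchyme markers was 418944 and 579834 in WT and 52395 and 65065 in the other genotype, with 5 lower and 1 higher. Most of that sum in WT was *Col1a1*, *Col1a2* and *Col3a1* (means 154833, 98704 and 183946), so it mainly follows collagen RNA. *Prrx1* was the gene called higher (log2 fold change 1.09), and *Pdgfra* (-0.18), *Twist1* (1.01) and *Twist2* (-0.58) were not called. The sum of 6 visceral endoderm and liver markers was 80368 and 64591 against 574 and 487, all 6 lower and *Alb* at 0 in both libraries labelled *Taf4a*-/-. The 5 endothelial markers had log2 fold changes from -1.62 to 0.09, none of them called by limma and 2 with an unadjusted p-value under 0.05, and sums of 6900.3 to 10150 in WT and 5307 to 8539 in the other genotype. For epicardium and mesothelium 2 of 5 fell, *Upk3b* and *Msln*, and the sums were 3808 to 4064 and 2951 to 3904. The genes of this list that were not called had log2 fold changes of 0.93 (*Wt1*), -0.50 (*Tcf21*) and -0.49 (*Upk1b*). Of 8 neural markers, *Map2* and *Sox1* were not found under these symbols and *Neurod1* was too low to test. Of the other 5, 1 fell, and the sums of the markers found were 829 to 1023 and 1030 to 1182. The part of these cells in the values of the pacemaker genes was not tested.

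Other genes of the pacemaker network were described from 6 lists, whose genes were taken from background knowledge of the node. Of 15 sinoatrial and cardiac transcription factors and signals, 2 rose and 6 fell, with a median log2 fold change of -0.23. Among all tested genes 11.3% were called higher and 17.3% lower. Without WT replicate 1 there were 4 that rose, without WT replicate 2 or *Taf4a*-/- replicate 2 there was 1, and without *Taf4a*-/- replicate 1 there were 3 that fell. *Tbx18*, which forms the sinus horns from which the node develops, had 126 and 102 normalized counts in WT and 372 and 389 in those labelled *Taf4a*-/-, a log2 fold change of 1.74 (limma adjusted p = 0.00398). *Meis1*, a homeodomain cofactor, rose by 0.66. *Tbx5*, an activator of the chamber and conduction programmes, fell with a log2 fold change of -2.87. *Nkx2-5*, the chamber factor that restrains the node programme, was at -2.64, and *Mef2c*, a regulator of muscle genes, at -1.59. *Isl1*, a node factor named here after its values were seen, was not called, with 459 and 293 normalized counts in WT and 439 and 543 in the other genotype.

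Most of the other current and calcium cycling genes of pacemaker cells fell. Of 13 tested, 10 were lower and the other 3 were not called, beside 17.3% lower among all tested genes. The median was -1.22, and *Kcnj3* and *Gjd3* were too low to test. All 8 cardiomyocyte markers fell too, with a median of -3.46, so a fall was not particular to this list. *Slc8a1*, the sodium-calcium exchanger, fell by 2.92 on the log2 scale, from 2007 and 2959 normalized counts to 299.5 and 344. *Kcnj5*, a subunit of the potassium channel through which acetylcholine slows the node, fell by 2.86. *Ryr2*, the calcium release channel, had a log2 fold change of -2.47 and is also among the cardiomyocyte markers above. The count of lower genes was 6 with no variance trend, without WT replicate 2 and without *Taf4a*-/- replicate 1.

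Of 19 tested genes for HCN partners and control of cyclic AMP, 12 were lower and the other 7 were not called, with a median of -1.19. Among all tested genes 17.3% were lower. The largest falls were in *Rgs6*, which shuts off signals of the muscarinic receptor, at a log2 fold change of -2.76, *Popdc2*, which encodes a membrane protein that binds cyclic AMP, at -2.64, and *Mrvi1*, at -2.63. *Popdc2* had 786 and 855 normalized counts in WT and 113 and 152 in those labelled *Taf4a*-/-. *Kcne2* and *Cav3* were too low to test.

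Chamber genes that are known targets of repression by Tbx2 and Tbx3 numbered 6, of which 2 fell and 4 were not called, beside 17.3% lower among all tested genes. The 4 not called had log2 fold changes of 1.15 (*Gja5*), -0.007 (*Nppb*), -0.36 (*Gja1*) and -1.55 (*Nppa*). *Smpx*, a small muscle protein, went from 52.6 and 75.9 normalized counts to 1.96 and 2.21, a log2 fold change of -4.38. *Kcnj2*, the inward rectifier of working muscle, fell by 1.64. The median of -0.96 was -0.18, with 1 gene lower, when a mean of at least 50 normalized counts was required, since that filter leaves fewer genes of this short list. Among 10 other T-box genes with enough counts, 1 rose and 1 fell, *Tbx18* and *Tbx5* as above, and 3 rose without WT replicate 1. The shares among all tested genes were 11.3% higher and 17.3% lower. The median of these T-box genes was -0.08, and it was 0.16 with quantile normalization, where the median of all genes was 0.11.

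BMP signals induce *Tbx2* and *Tbx3* in the developing heart. Of 24 genes of the BMP pathway 3 rose and 5 fell, beside 11.3% higher and 17.3% lower among all tested genes, and the median was -0.21. *Msx1*, a common BMP target, had a log2 fold change of 2.42, but WT replicates 1 and 2 were far apart at 849.5 and 166 normalized counts against 1824 and 2239.6. *Id1*, a direct BMP target, rose by 0.52, and *Smad7*, an inhibitor induced by the pathway, rose by 0.46. *Bmp10*, a ligand made by heart muscle, had 68.4 and 16.6 normalized counts in WT and 0 and 2.21 in those labelled *Taf4a*-/-. *Grem1*, a secreted antagonist, fell by 2.80, and *Smad9*, a receptor-regulated Smad, fell by 1.54. Without WT replicate 1 there were 6 that rose, and 1 when any other library was left out, while without *Taf4a*-/- replicate 2 there were 3 that fell. With no variance trend no gene of this list was higher and 2 were lower.

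**Figure D4:**
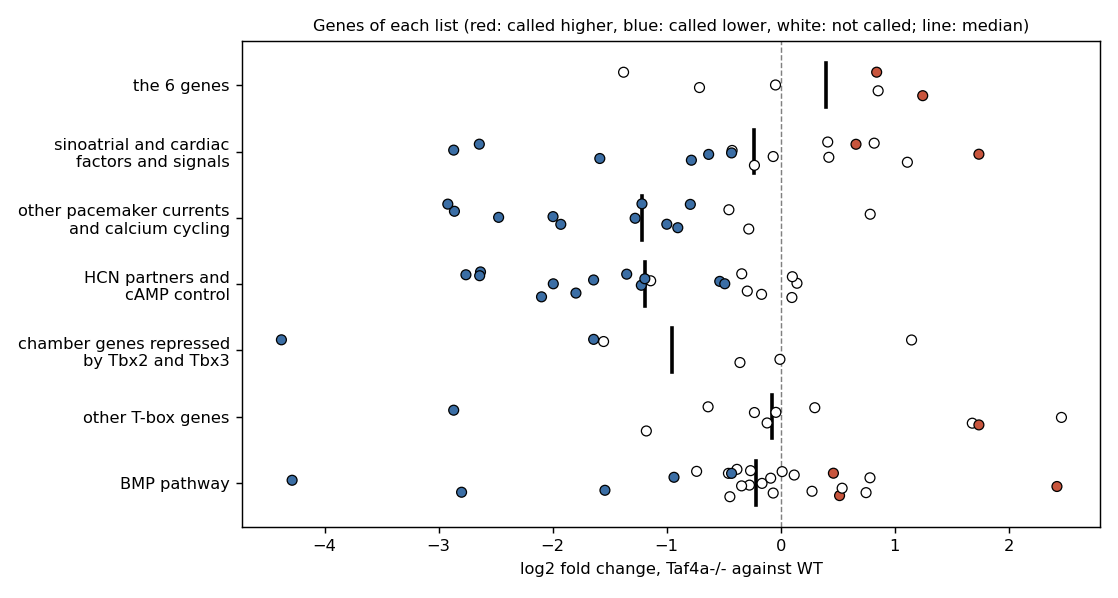
Log2 fold change in the libraries labelled *Taf4a*-/- against WT (horizontal axis) of each tested gene of the 6 genes and of the 6 lists (rows), with a line at each median. Red points were called higher, blue points lower and white points not called. Blue points are most frequent for pacemaker currents (10 of 13) and HCN partners (12 of 19), against 17.3% of all tested genes.

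For each of the 6 genes, the 3 tested genes with the most similar profile over the 4 libraries were found by the root mean square difference of log2 values centred on each gene's mean. For *Shox2* these were *Sarm1* (0.024), *1700019D03Rik* (0.035) and *5031425E22Rik* (0.039), and for *Tbx3* they were *Zfp786* (0.013), *Gm10638* (0.022) and *Gm5124* (0.022). *Hcn4* was most like *Slitrk2* (0.043), *Maob* (0.043) and *Col13a1* (0.047), and *Hcn2* most like *Rassf6* (0.044), *Tmem163* (0.052) and *Emilin3* (0.068). The profile of *Hcn3* was nearest to *Mecom* (0.053), *Ebf1* (0.059) and *Tmem229a* (0.059), and that of *Tbx2* to *Zfp282* (0.021), *9330159M07Rik* (0.022) and *Pqlc2* (0.023). With 4 libraries such likeness is common, and 74 genes lay within 0.2 of *Hcn2*, 202 of *Hcn3*, 214 of *Shox2*, 311 of *Hcn4*, 936 of *Tbx3* and 2658 of *Tbx2*.

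The WT libraries were not alike in the pacemaker genes. With 1 library per line, a difference between lines cannot be told apart from one between cultures. *Tbx2*, *Tbx3*, *Hcn4*, *Shox2* and *Hcn3* were higher in WT replicate 1 than in replicate 2, by 0.44, 0.43, 0.42, 0.72 and 1.02 on the log2 scale, and *Hcn2* was lower by 0.97. In the libraries labelled *Taf4a*-/-, *Hcn2* was higher in replicate 1 by 0.72 and *Hcn4* was lower there by 0.50, while *Shox2* and *Tbx3* differed by 0.13 and 0.32. The rises of *Shox2* and *Tbx3* were therefore larger against WT replicate 2 than against WT replicate 1. Summed marker levels also differed between WT replicates 1 and 2. They were 5404 and 2780.5 for undifferentiated cells, 10150 and 6900 for endothelium, and 80368 and 64591 for visceral endoderm and liver. Sums for epicardium and mesothelium were 4064 and 3808, and those for neural cells 1023 and 829. Replicate 2 had the higher sum for cardiomyocytes (21973 and 25249) and for fibroblast and mesenchyme (418944 and 579834). The part of these cells in the difference between the WT lines was not tested.

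**Figure D5:**
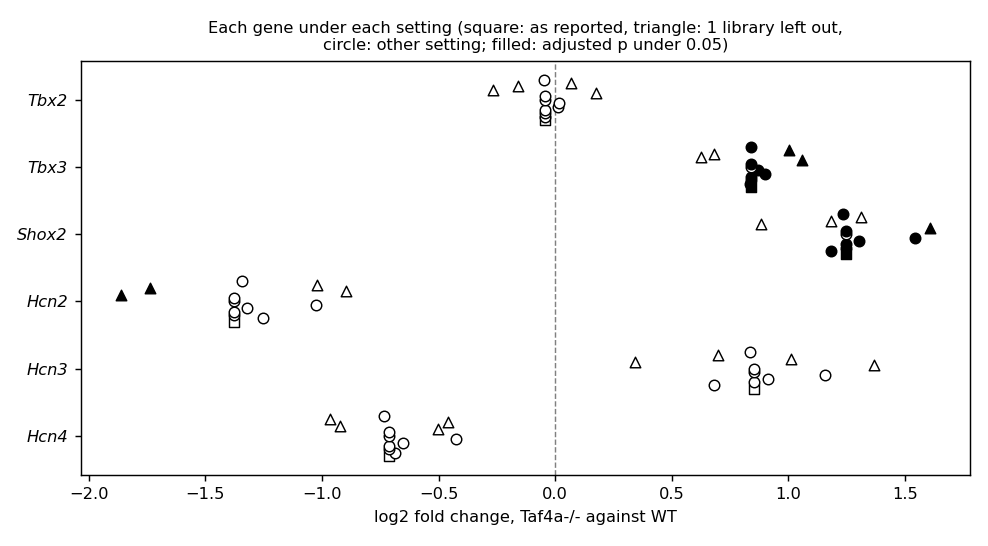
Log2 fold change of the 6 genes (rows) under each setting, with a square for the reported value, triangles for fits that leave out 1 library and circles for other settings, filled where the adjusted p-value was under 0.05. *Shox2* and *Tbx3* lie to the right of 0 and *Hcn2* and *Hcn4* to the left under all settings run, and *Tbx2* lies on both sides.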

How the data were processed

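Per the labels, polyadenylated RNA of 4 day 9 cultures was sequenced from unstranded TruSeq libraries. The submitters' processing notes name CASAVA 1.8, TopHat 1.3.3 with mm9, HTSeq 0.5.3p1 and DESeq, and the paper names DESeq 2. The authors deposited normalized counts, that is reads per gene divided by 1 size factor per library, with decimal commas; the annotation release is not given in the sources used here. All values were within 0.01 of a whole multiple of the value of 1 read, so reads were recovered. The reads carry no molecular identifiers.

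Genes averaging 10 or more normalized counts (16926) were fitted with limma 3.58.1 in R 4.3.3 (lmFit, eBayes with a variance trend, two-sided) after log2 transformation with a pseudocount of 1, which shrinks fold changes of genes with few reads, and were called when the p-value adjusted by Benjamini-Hochberg was under 0.05. The replicates are taken as independent lines, 2 per genotype, from the general methods of the paper, since the titles do not name lines. No batch is labelled. Levels per kb use merged exons of GENCODE M1 on NCBIM37, which held all 24637 gene identifiers.

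The 6 genes and the lists were chosen with earlier results of these data known, so lists are described by counts and medians without a set test. Named from each list were the up to 3 called genes with the largest rise and the up to 3 with the largest fall. Some genes of the lists are not reported here and were left out of the counts and medians. Promoter windows are from RefSeq. Alternatives were another pseudocount, filters, scalings, variance model, blocking on replicate number and removal of single libraries. Voom weights computed from the recovered reads were an alternative chosen after seeing the data, and the planned edgeR and DESeq2 fits were not run.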

Additional observations from a re-analysis of the deposited data

How the results depend on the processing

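With 2 libraries per genotype, the calls of *Shox2* and *Tbx3* depend on the variance model and on single libraries. All alternatives below but voom were planned; a fit without 1 library assumes that the lone library of a genotype varies like the others. With no variance trend the log2 fold changes of *Shox2* (1.25) and *Tbx3* (0.84) no longer passed the threshold. Without 1 library they ran from 0.88 to 1.61 and from 0.63 to 1.06, *Hcn2* ran from -1.86 to -0.90, and *Tbx2* ran from -0.27 to 0.17, above 0 without WT replicate 1 (0.17) and without *Taf4a*-/- replicate 2 (0.07), with equal totals (0.014) and with quantile normalization (0.018). *Hcn3* and *Hcn4* kept their direction and stayed above the threshold of 0.05 under all alternatives run, though *Hcn3* was not tested at a mean of at least 50. The cause was not tested.

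All genes called higher were 1906, 856 with no variance trend and 600 to 2558 without 1 library (600 and 649 without *Taf4a*-/- replicate 1 and 2, 928 without WT replicate 2), and those called lower were 2928, 1741 with no variance trend and 1453 (without WT replicate 2) to 3106 without 1 library. Voom changed no call of the 6 genes. No pairing of replicates is labelled. The correlation of same-numbered deviations was 0.01, which cannot show whether replicates of the same number were handled together. With the replicate number as a block, *Shox2* kept 1.25 (adjusted p = 0.0235) and *Tbx3* 0.84 (adjusted p = 0.0105), no call of the 6 genes changed, and 1536 genes were higher and 2657 lower.

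For the gene lists, the median of pacemaker currents (-1.22) was -1.06 with a pseudocount of 10, -0.9996 at a mean of at least 50 and -0.96 with quantile normalization. That of chamber genes (-0.96) was -0.18 at a mean of at least 50, with 1 gene lower. Other T-box genes (-0.08) had a median of 0.13 at a mean of at least 50, 0.30 with no filter and 0.16 with quantile normalization, which also gave -0.075 for BMP. BMP genes called lower (5) were 3 with no filter, equal totals or the replicate block, and 2 with no variance trend, which left 0 higher, 1 sinoatrial factor higher and 6 pacemaker current genes lower. The block gave 1 pacemaker current gene and 3 other T-box genes higher. Without 1 library the medians ran from -0.39 to -0.12 for sinoatrial factors, -1.42 to -0.98 for currents, -1.42 to -0.96 for HCN partners, -1.17 to -0.68 for chamber genes, -0.23 to 0.17 for T-box genes and -0.23 to 0.014 for BMP, and the T-box and BMP medians were above 0 without WT replicate 1 (0.02 and 0.014) and the T-box median without *Taf4a*-/- replicate 1 (0.17). Higher calls ran from 1 to 4 for sinoatrial factors, 0 to 1 for currents, 1 to 3 for T-box and 1 to 6 for BMP, and lower calls from 3 to 6 for sinoatrial factors, 6 to 8 for currents and 3 to 4 for BMP.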

Other observations

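A pair of the other T-box genes, chosen after their values were seen, differed widely between the WT lines. *T*, the brachyury factor of the primitive streak, had 194 and 13.5 normalized counts in replicates 1 and 2 of WT and 405 and 210.1 in those labelled *Taf4a*-/-, and was not called (log2 fold change 2.46, limma adjusted p = 0.148). *Eomes*, which acts with it in early mesoderm and endoderm, had 706 and 158 normalized counts in WT and 1225 and 940.1 in the other genotype (log2 fold change 1.68, limma adjusted p = 0.0967).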
